A study of Mus musculus with 8 samples.

Results

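Chemokines are small secreted proteins that guide the movement of cells, and each binds one or more G protein-coupled receptors, most of which signal through Gi. Atypical chemokine receptors bind the same ligands, take them up and do not signal through G proteins. In the healthy brain, fractalkine (Cx3cl1) on neurons is read by Cx3cr1 on microglia, Cxcl12 guides neuronal progenitors through Cxcr4, and most inflammatory chemokines are kept low until microglia or astrocytes are activated. Chemokines and chemokine receptors were taken here as the genes whose mouse symbol follows the family names Ccl, Cxcl, Cx3cl, Xcl, Ccr, Cxcr, Cx3cr, Xcr and Ackr. This gave 57 of the 29442 genes in the count table, which were 36 ligands, 18 receptors and 3 atypical receptors.

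RNA-seq was done on hippocampus of female C57BL/6 J mice. The DHEA group received dehydroepiandrosterone, an adrenal androgen precursor, at 30 mg/kg/day by subcutaneous injection of the abdomen for 21 days, and the control group received sesame oil, the vehicle, in the same way. Mice were 6 to 8 weeks old at the start, and all had passed through behavioral tests before the tissue was taken. Each group held 4 libraries, which were HipR3, HipR4, HipR7 and HipR11 for DHEA and HipR5, HipR10, HipR16 and HipR9 for sesame oil. The methods name the ventral hippocampus and the labels the hippocampus. The methods describe tissue taken from each mouse and 4 samples a group, so p-values measure the spread between these libraries, each read here as 1 mouse. Groups are named by the deposited labels throughout. The study's own gene list gives Ccr10, and the pituitary hormone genes Gh, Prl and Pomc, the opposite direction to that given by these labels, and which direction is right could not be settled from the values in the deposited files. The study's qRT-PCR of further hippocampal samples also bears on this and is not used here.

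Total counts were 35748416 to 38038361 in the DHEA libraries (median 36499419.5) and 31483772 to 35418297 in the sesame oil libraries (median 32933563). Every DHEA library thus held more counts than every sesame oil library (exact two-sided permutation p = 0.0286, the smallest that 4 against 4 allows). Between libraries, levels are given as CPM, the counts scaled to a common library total after TMM normalization, on which 3 counts were worth 0.0808 to 0.0952. Between genes, levels are compared as the deposited FPKM, which is per transcript length.

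Hippocampal neuron markers were looked at without other brain tissue to set them against, so the hippocampal label itself was not tested. All 8 hippocampal neuron markers were counted, and the most abundant, the transcription factor Neurod6, reached 105.2 FPKM. Among these markers, Dsp was at 18.1 CPM in HipR16 (sesame oil), compared with 44.8 to 59.5 CPM in the other libraries. Tissue from beside the hippocampus differed widely between libraries. The summed level of the 7 choroid plexus markers, of which the thyroid hormone carrier Ttr was the most abundant at 1601 FPKM, was 4513, 95.98, 2226 and 4177 CPM in HipR3, HipR4, HipR7 and HipR11, and 3149, 2053, 2284 and 516.3 CPM in HipR5, HipR10, HipR16 and HipR9. HipR4 and HipR9 therefore held far less choroid plexus RNA than the other libraries.

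Upstream sequences are shown for 3 ligands, as the stretch of 250 bases that ends just before the annotated start. Cx3cl1 is shown as the member with the highest level, Ccl9 as the member with the smallest p between the groups, and Cxcl1, a neutrophil attractant that is induced through NF-kB, as an inflammatory ligand with several NF-kB-like matches. Sequences are from RefSeq on GRCm38.p6, which is not the build of the counts, and capitals mark matches to TATAAA or to an NF-kB-like motif (GGG, any 3 bases, then TTCC) on either strand.
Cx3cl1 (chr8:94771930-94772179, plus strand): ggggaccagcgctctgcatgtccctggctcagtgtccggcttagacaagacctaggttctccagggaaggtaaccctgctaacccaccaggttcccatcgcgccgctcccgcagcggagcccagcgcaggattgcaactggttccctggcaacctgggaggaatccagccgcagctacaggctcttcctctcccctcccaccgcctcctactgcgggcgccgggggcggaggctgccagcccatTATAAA
Ccl9 (chr11:83578637-83578886, minus strand): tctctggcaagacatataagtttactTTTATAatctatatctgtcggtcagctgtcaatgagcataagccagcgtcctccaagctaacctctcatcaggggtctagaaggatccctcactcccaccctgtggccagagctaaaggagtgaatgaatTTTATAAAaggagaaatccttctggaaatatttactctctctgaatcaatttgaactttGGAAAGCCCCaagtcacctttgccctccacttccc
Cxcl1 (chr5:90890995-90891244, plus strand): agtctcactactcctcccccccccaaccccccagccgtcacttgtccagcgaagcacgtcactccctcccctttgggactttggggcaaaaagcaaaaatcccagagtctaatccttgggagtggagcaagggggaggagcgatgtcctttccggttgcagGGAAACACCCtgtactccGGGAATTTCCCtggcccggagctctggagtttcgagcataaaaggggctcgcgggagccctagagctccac

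In Cx3cl1 the TATAAA match lay at positions -6 to -1 from the annotated start. In Ccl9 the NF-kB-like match lay at -35 to -26 on the minus strand, and the TATAAA matches lay at -224 to -219, -94 to -89 and -92 to -87, of which the last pair overlap. Cxcl1 held NF-kB-like matches at -89 to -80, -71 to -62 and -70 to -61, and the last pair again overlap on opposite strands. Over the family, 44 of the 57 members had 51 such promoters in the RefSeq table. The NF-kB-like letters were in 17.6% of these promoters and in 4.65% of all 32851, and TATAAA was in 27.5% and 12.4%. The androgen receptor half-site AGAACA was in 15.7% of the members' promoters and in 16.1% of all. The members' promoters were also poorer in CpG, with a median observed to expected ratio of 0.248 against 0.373 for all promoters. Within the family, none of the 12 promoters of members with a mean count of at least 100 held the NF-kB-like letters, compared with 23.1% of the other 39, and their median CpG ratio was 0.508 compared with 0.226. TATAAA was in 33.3% and 25.6% of these promoters and AGAACA in 16.7% and 15.4%. No difference in letters was tested, and these are descriptions of letters in a window, not of binding.

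The hippocampus expressed a few chemokine genes strongly and most of the family hardly at all. No count was found for 4 members, which were Ccl1, Ccr4, Cxcl3 and Cxcr5. A further 14 had a mean count under 1 per library, 19 had a mean of 1 to under 10, 10 a mean of 10 to under 100, and 10 a mean of 100 or more. The 20 members with a mean of at least 10 were 12 ligands, 5 receptors and all 3 atypical receptors. Only 26 of the 57 were counted in every library.

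**Figure D1:**
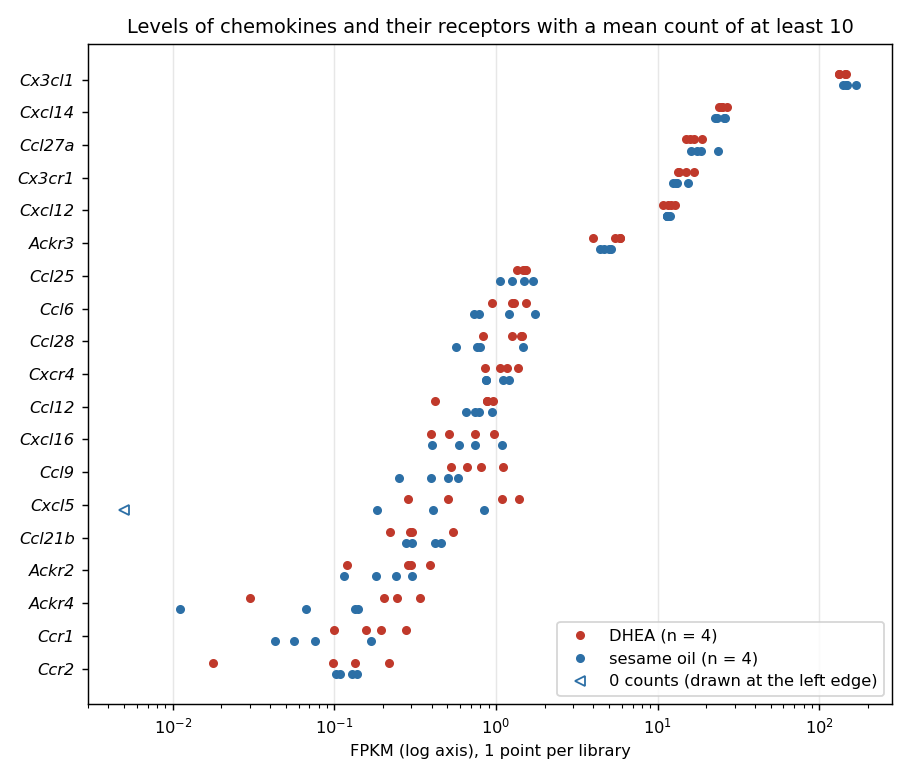
FPKM on a log axis of 19 of the 20 members whose counts averaged at least 10 per library, 1 point per library, with DHEA in red and sesame oil in blue (4 libraries each). Cx3cl1 stood far above the others, followed by Cxcl14, Ccl27a, Cx3cr1 and Cxcl12, and the colors overlapped in every row.

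Cx3cl1, the membrane-bound chemokine of neurons, dominated the family. Its level was 145.3 ± 11.6 FPKM (SD, n = 8), rank 257 among all genes in the table. It alone made up 63.0% of the members' summed FPKM, with a range of 59.0% to 65.5% over the libraries. Cxcl14, a ligand made in brain by interneurons, followed at 24.87 ± 1.461 FPKM. Ccl27a, the mouse counterpart of a skin T cell attractant, was at 17.78 ± 2.673 FPKM. The exons of Ccl27a overlap those of Il11ra1 on the opposite strand, and it has near-identical copies, so its count is uncertain where the strand setting is not given. Cx3cr1, the fractalkine receptor of microglia, was the most abundant receptor at 14.09 ± 1.48 FPKM. Cxcl12, which binds Cxcr4 and Ackr3, stood at 11.69 ± 0.599 FPKM. These 5 genes made up 92.7% of the summed FPKM (91.4% to 94.2%).

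The order of the leading members was steady from library to library. Cx3cl1 was above Cxcl14, Cxcl14 above Ccl27a, Cx3cr1 above Cxcl12, and Cxcl12 above the scavenging receptor Ackr3 (5.046 ± 0.676 FPKM) in all 8 libraries, and Ccl27a was above Cx3cr1 in 7. Below Ackr3 the levels ran close together. Ccl25, a thymic and gut T cell attractant, was at 1.424 ± 0.195 FPKM and above Ccl6 in 6 of 8 libraries. Ccl6, a ligand of myeloid cells, was at 1.186 ± 0.354 FPKM, and was above the mucosal chemokine Ccl28 (1.071 ± 0.368 FPKM) in 4 libraries. Ccl28 in turn was above Cxcr4 (1.064 ± 0.189 FPKM) in 4, so these neighbours could not be put in order. Ccl12, a monocyte attractant that binds Ccr2, closed the 12 highest at 0.784 ± 0.182 FPKM.

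Ligands and receptors known to bind each other were then set side by side. Of 32 listed pairs found in the table, both partners had a mean count of at least 10 in 5, namely Cx3cl1 with Cx3cr1, Cxcl12 with Cxcr4, Cxcl12 with Ackr3, Ccl12 with Ccr2, and Ccl25 with Ackr4. Only the ligand reached that count in 6 pairs, only the receptor in 8, and neither in 13. Several of the ligand-only pairs have a receptor of lymphocytes. Ccl27a at 17.78 FPKM and Ccl28 at 1.071 FPKM faced their receptor Ccr10 at 0.0321 FPKM. Ccl25 faced Ccr9 at 0.0613 FPKM, and Cxcl16, a membrane-bound ligand, at 0.679 FPKM faced Cxcr6 at 0.0134 FPKM.

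The 3 receptors just named, Ccr10, Ccr9 and Cxcr6, each had a mean count under 10, and lymphocyte markers were low as well. All 9 T and NK cell markers in the table had a mean count under 10. Their summed level was 0.485, 0.589, 0.555 and 0.383 CPM in the DHEA libraries and 0.211, 0.477, 0.539 and 0.385 CPM in the sesame oil libraries, and the most abundant of them was Cd4 at 0.0584 FPKM. The 4 B cell markers in the table also all had a mean count under 10, with Cd79a the most abundant at 0.232 FPKM. The microglial receptor Cx3cr1, at 14.09 FPKM, stood well above this.

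Between the groups, no chemokine or receptor passed the test after adjustment, and the differences of the abundant members were small. Only Ccl9, a ligand of the macrophage receptor Ccr1, and Ccr10 were higher in the libraries labelled DHEA at an unadjusted p under 0.05, and no member was lower. That is 2 of the 53 members tested, or 3.77%, against 4.82% of all 27612 genes tested that were higher and 4.49% that were lower, so in this fit of all 8 libraries the share of members was no larger than that of genes at large. With the fold threshold of at least 2 or at most 0.5 added, Ccr10 alone was left (1.89% of members, against 1.60% of all genes). The edgeR quasi-likelihood test with Benjamini-Hochberg adjustment called no gene of the whole table (0% called) although 2571 had an unadjusted p under 0.05, and DESeq2 gave 153 adjusted calls over all genes, none of them among the members, although it gave 44 of the 53 no adjusted p. The count of 2 higher members depended on single libraries. It was 6 without HipR7 (11.5% of members, against 6.51% of all genes), 5 without HipR10 (9.43% against 3.91%), 5 without HipR9 (9.43% against 4.46%) and 4 without HipR11 (7.84% against 5.74%). It was 3 without HipR3 (5.66% against 3.84%), HipR4 (5.66% against 3.97%) or HipR16 (5.77% against 3.52%) and 2 without HipR5 (3.85% against 3.31%), so the share of members was the larger one whenever a library was left out. Without HipR9 there was 1 lower member in place of none.

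None of the 20 members with a mean count of at least 10 separated the groups, in either direction, where 3.63% of all genes of that count were higher in every DHEA library and 3.53% lower in every one. Most of the 20 nevertheless had a positive difference. Their median log2 fold change was 0.13, with 16 of 20 above 0, beside 0.01 and 53.5% above 0 over all genes so filtered. HipR4, a DHEA library, was the highest of the 8 libraries for 8 of the 20 members, and no member was lowest in it.

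**Figure D2:**
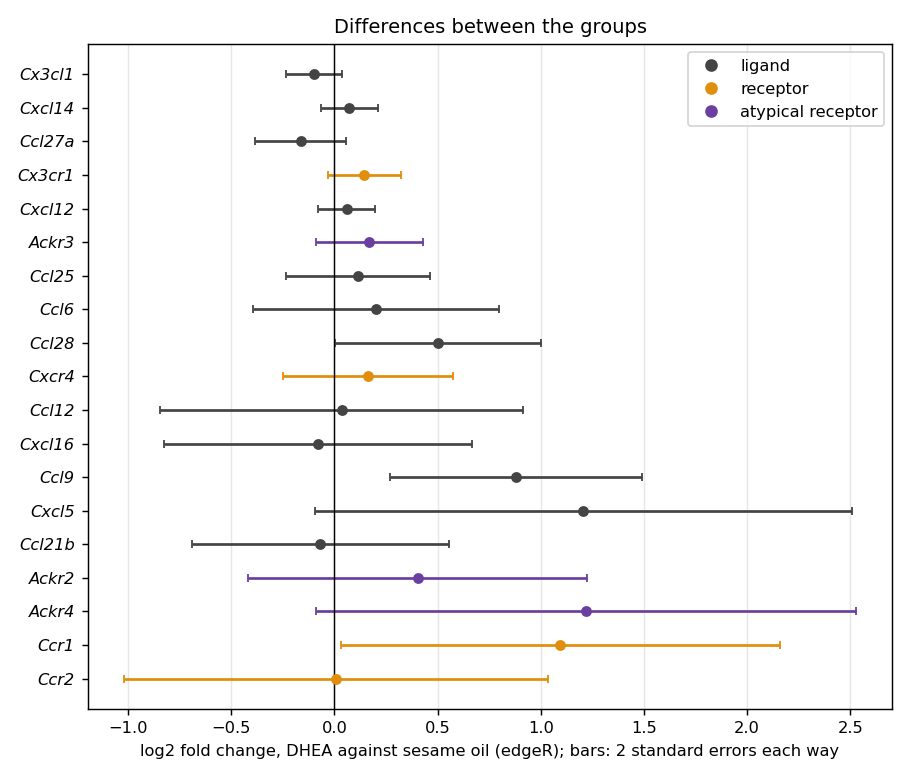
Log2 fold change of 19 of the 20 members with a mean count of at least 10, DHEA against sesame oil, from the edgeR fit, with bars of 2 standard errors on each side and colors for ligands, receptors and atypical receptors. The intervals of the 6 most abundant members were narrow and all included 0. Those of Ccl9 and, narrowly, of Ccr1 and Ccl28 lay above 0. The unadjusted p of Ccr1 (0.0539) and of Ccl28 (0.060) was nevertheless above 0.05 (edgeR), and no adjusted p was under 0.05.

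The neuronal ligand Cx3cl1 was among the most precisely measured members. It was at 466, 429, 459 and 411 CPM in HipR3, HipR4, HipR7 and HipR11, and at 463, 441, 530 and 455 CPM in HipR5, HipR10, HipR16 and HipR9. HipR16 was the highest library and HipR11 the lowest, and the groups overlapped. The log2 fold change was -0.10 ± 0.07 (SE; adjusted p = 0.655, edgeR), and the exact permutation p was 0.257. Its receptor Cx3cr1 was at 57.5, 65.1, 50.5 and 49.4 CPM in the DHEA libraries and at 46.5, 49.2, 48.6 and 56.9 CPM in the sesame oil libraries. HipR4 was high and the groups again overlapped, with a log2 fold change of 0.14 ± 0.09 (adjusted p = 0.634, edgeR; exact permutation p = 0.171). The unadjusted p of Cx3cr1 (edgeR), 0.121 with all libraries, was 0.038 without HipR9 and 0.042 without HipR11. Leaving out HipR4 went the other way, with a log2 fold change of 0.053 (unadjusted p = 0.521, edgeR).

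The other abundant ligands also differed little. Cxcl14 was at 76.3, 87.1, 78.1 and 77.2 CPM with DHEA and at 72.2, 70.5, 81.3 and 79.4 CPM with sesame oil. Cxcl14 had a log2 fold change of 0.07 ± 0.07 (adjusted p = 0.678, edgeR), with HipR4 above the rest of its group. Cxcl12 was at 89.0, 94.3, 82.2 and 76.3 CPM with DHEA and at 80.5, 81.8, 81.7 and 84.1 CPM with sesame oil. The DHEA libraries of Cxcl12 lay on both sides of the tightly grouped sesame oil libraries (log2 fold change 0.06 ± 0.07, adjusted p = 0.742, edgeR). Ccl27a was at 20.2, 21.6, 24.5 and 21.9 CPM with DHEA and at 22.7, 21.1, 30.9 and 24.0 CPM with sesame oil. HipR16 alone stood high for Ccl27a. The log2 fold change of Ccl27a was -0.16 ± 0.11 (adjusted p = 0.645, edgeR), and -0.045 without HipR16 (unadjusted p = 0.662, edgeR).

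The Cxcl12 receptors were no different in this respect. Ackr3, which clears Cxcl12, was at 14.0, 13.1, 9.21 and 13.6 CPM with DHEA and at 11.8, 10.8, 11.6 and 10.1 CPM with sesame oil. A single DHEA library, HipR7, was the lowest of all 8, while the other DHEA libraries were the highest. Ackr3 had a log2 fold change of 0.17 ± 0.13 (unadjusted p = 0.210, adjusted p = 0.666, edgeR). The log2 fold change was 0.29 without HipR7 (unadjusted p = 0.0186, edgeR) and 0.108 without HipR3 (unadjusted p = 0.45, edgeR). Without HipR9 the unadjusted p was 0.388 (edgeR). Cxcr4, the signaling receptor, was at 3.45, 3.14, 3.91 and 2.44 CPM with DHEA and at 3.44, 2.50, 2.48 and 3.14 CPM with sesame oil, with full overlap (log2 fold change 0.16 ± 0.21, adjusted p = 0.768, edgeR).

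Ccl9 had the smallest p of the family. It was at 2.50, 3.45, 1.58 and 1.97 CPM with DHEA and at 1.72, 1.18, 1.52 and 0.741 CPM with sesame oil. The groups overlapped at a single point, HipR7 lying below HipR5, and HipR4 was the highest. The log2 fold change was 0.88 ± 0.31, with an unadjusted p of 0.00985 and an adjusted p of 0.372 (edgeR), and the exact permutation p was 0.0571. Over 16 alternative settings the unadjusted p of Ccl9 was under 0.05 in 15, and the smallest adjusted p given was 0.113. Leaving out single libraries gave unadjusted p-values from 0.00312 to 0.0546 (edgeR), the largest without HipR4. Ccr1, a receptor of Ccl9 that was added to the named genes after its values were seen, was at 0.565, 0.813, 0.277 and 0.438 CPM with DHEA and at 0.211, 0.477, 0.159 and 0.119 CPM with sesame oil. HipR4 was again the highest and HipR9 again the lowest library. For Ccr1 the log2 fold change was 1.09 ± 0.53 (unadjusted p = 0.0539 and adjusted p = 0.542 by edgeR, exact permutation p = 0.0857). Its unadjusted p (edgeR) was 0.0274 without HipR7 and 0.0107 without HipR10, where the log2 fold change was 1.664. Without HipR4 the log2 fold change was 0.796 (unadjusted p = 0.187, edgeR). The unadjusted p (edgeR) was 0.136 without HipR9 and 0.121 without HipR16.

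**Figure D3:**
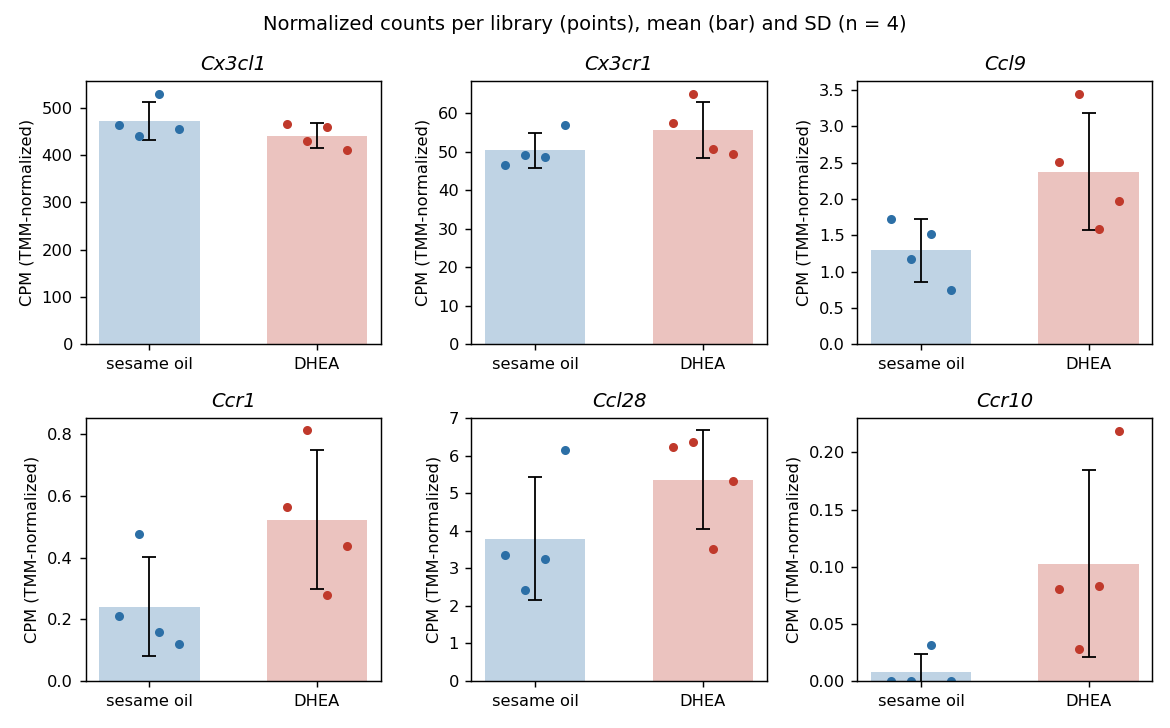
TMM-normalized CPM per library (points) with the group mean (bar) and SD (n = 4) for Cx3cl1, Cx3cr1, Ccl9, Ccr1, Ccl28 and Ccr10, sesame oil in blue and DHEA in red, each axis starting at 0. The groups overlapped in all 6 panels, and the sesame oil libraries of Ccr10 were at 0 except HipR16.

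Ccr10, a receptor of skin-homing T cells and of plasma cells, was chosen by the study for qRT-PCR on these libraries' evidence, so its difference here is not independent evidence. The primers for that assay are shown because they place the measured piece of the transcript, with no capitals marked.
Ccr10 forward primer: atgtccaggctttcagtcgg
Ccr10 reverse primer: gaggtgggagatcgggtagt
In the GENCODE vM21 transcript of Ccr10, which is 1726 bases long, the forward primer matched bases 124 to 143 and the reverse primer bases 234 to 253, which bounds a product of 130 bases. In the RNA-seq the gene rested on few reads. Its counts were 3, 1, 3 and 8 in HipR3, HipR4, HipR7 and HipR11, and 0, 0, 1 and 0 in HipR5, HipR10, HipR16 and HipR9. HipR11 held more than the other libraries, and HipR4 lay below HipR16 in CPM, so the groups overlapped. As CPM the means were 0.103 ± 0.0816 with DHEA and 0.00793 ± 0.0159 with sesame oil (SD, n = 4). The summed counts of 15 and 1 gave a ratio of rates of 13.8 with an exact 95% interval of 2.13 to 582, which covers counting error only. The unadjusted p was 0.0138 and the adjusted p 0.402 (edgeR), and the exact permutation p was 0.0571. Without HipR11 the counts were 7 and 1, the ratio was 8.62 (1.11 to 389) and the unadjusted p was 0.064.

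The ligands of Ccr10 gave no shared direction. Ccl28 was at 6.25, 6.37, 3.52 and 5.34 CPM with DHEA and at 3.35, 2.41, 3.24 and 6.17 CPM with sesame oil. The libraries fell into a high set of HipR3, HipR4, HipR11 and HipR9 and a low set of the others, which crossed the groups. The log2 fold change of Ccl28 was 0.50 ± 0.25 (unadjusted p = 0.060 and adjusted p = 0.553 by edgeR, exact permutation p = 0.143). It was 0.841 without HipR9 (unadjusted p = 0.00172, edgeR) and 0.335 without HipR10 (unadjusted p = 0.195, edgeR). The unadjusted p (edgeR) was 0.0126 without HipR7, 0.138 without HipR4 and 0.139 without HipR16. The other ligand, Ccl27a, had the negative difference given above, which was smaller without HipR16.

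The ligands lower in the order of levels did not separate the groups either. Ccl6 was at 1.86, 2.27, 1.83 and 1.34 CPM with DHEA and at 1.12, 1.71, 1.05 and 2.46 CPM with sesame oil. The sesame oil libraries of Ccl6 spanned the whole range (log2 fold change 0.20 ± 0.30, adjusted p = 0.817, edgeR). Ccl25 was at 4.25, 4.63, 4.69 and 4.63 CPM with DHEA and at 3.23, 4.57, 5.21 and 3.80 CPM with sesame oil. Its DHEA libraries lay inside the sesame oil range (log2 fold change 0.12 ± 0.17, adjusted p = 0.823, edgeR), and its exons overlap those of Elavl1 on the opposite strand. Ccl12 was at 0.485, 0.533, 0.222 and 0.465 CPM with DHEA and at 0.392, 0.505, 0.349 and 0.415 CPM with sesame oil, with a log2 fold change of 0.04 ± 0.44 (adjusted p = 0.984, edgeR).

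Several members varied widely between libraries of the same group, and 3 more are named after their values were seen. Cxcl5, a neutrophil attractant, was at 0.861, 1.85, 2.27 and 0.465 CPM with DHEA and at 0.302, 0.673, 0 and 1.36 CPM with sesame oil. Its coefficient of variation over the 8 libraries was 81.2%, compared with 7.7% for Cx3cl1, and its log2 fold change was 1.21 ± 0.65 (unadjusted p = 0.0801, edgeR). The unadjusted p of Cxcl5 (edgeR) was 0.00996 without HipR9, 0.0297 without HipR11 and 0.049 without HipR3. Its log2 fold change was 2.03 without HipR9. It was 0.843 without HipR7 (unadjusted p = 0.232, edgeR) and 0.795 without HipR16 (unadjusted p = 0.148, edgeR). Ccl7, a monocyte attractant, was at 0.0538, 0.0561, 0 and 0.137 CPM with DHEA and at 0.0604, 0.813, 0.0635 and 0 CPM with sesame oil. HipR10 alone held 29 counts of Ccl7, and the log2 fold change of -1.88 ± 1.07 (unadjusted p = 0.0961, edgeR) was 0.55 without that library.

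Ackr4, an atypical receptor that takes up Ccl19, Ccl21 and Ccl25, was at 0.942, 0.0842, 0.666 and 0.547 CPM with DHEA and at 0.181, 0.365, 0.381 and 0.0296 CPM with sesame oil. HipR4 and HipR9 were its lowest libraries, and the same libraries were the lowest for the choroid plexus markers given above. The log2 fold change of Ackr4 was 1.22 ± 0.65 (unadjusted p = 0.0787 by edgeR, exact permutation p = 0.171). It was 0.848 without HipR3 (unadjusted p = 0.242, edgeR) and 0.853 without HipR9 (unadjusted p = 0.189, edgeR). Without HipR4 the unadjusted p of Ackr4 was 0.0119 (edgeR). Of the 7 choroid plexus markers, 7 then passed an unadjusted p of 0.05, compared with none of 7 over all libraries. The part of choroid plexus tissue in the level of Ackr4 was not tested, and the exons of Ackr4 overlap those of Acad11 on the opposite strand.

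All 15 microglia markers had a positive log2 fold change, as did 51.2% of all genes tested, with none past the adjusted test and with groups that overlapped in their summed level. Astrocyte and choroid plexus markers were also positive in 7 of 7 each. Of the 15 microglia markers, 6 were higher in the DHEA libraries at an unadjusted p under 0.05 (4.82% of all genes were), among them P2ry12, Itgam, Fcrls, C1qa and C1qb, none was lower, none was at 0, and the median log2 fold change was 0.22. Their summed level was 495, 582, 463 and 434 CPM in HipR3, HipR4, HipR7 and HipR11 and 388, 436, 417 and 459 CPM in HipR5, HipR10, HipR16 and HipR9. HipR4, the highest library for Cx3cr1, Ccl9 and Ccr1, was also the highest for these markers, and without it 3 of the 15 passed, while 9 passed without HipR11. In bulk tissue, more microglia and more RNA per cell cannot be told apart, and the part of either in the levels of these members was not tested.

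Across the 8 libraries Cx3cr1 followed the mean level of the microglia markers closely. Pearson's r was 0.942 (exact permutation p = 4.96e-05, 0.000248 after adjustment over 5 relations) and Spearman's rho was 0.976 (exact permutation p = 0.000397, adjusted 0.00198). Leaving out the 2 libraries farthest from the median of the markers gave an r of 0.886, and r within groups was 0.934. Ackr3 followed the endothelium markers, with r = 0.86 (exact permutation p = 0.00858, adjusted 0.0215) and rho = 0.786 (exact permutation p = 0.0279, adjusted 0.0465). HipR3, HipR4 and HipR11 lay above the other 5 libraries on both measures. The relation of Ackr3 kept an r of 0.818 without the 2 extreme libraries and of 0.856 within groups. Each member was set against a single list, so whether it followed that cell type more than others was not tested. HipR7, lowest for Ackr3, was also lowest for border macrophage, mural and meningeal fibroblast markers (mean log2 CPM 0.984, 4.33 and 3.65). HipR4, highest for Cx3cr1, was also highest for astrocyte markers (8.18).

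**Figure D4:**
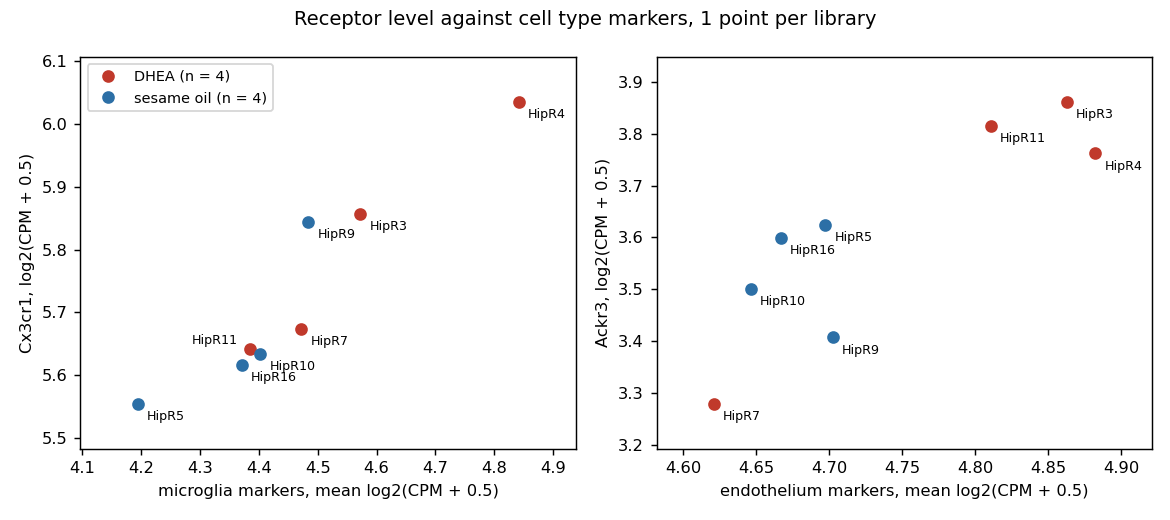
Left, log2(CPM + 0.5) of Cx3cr1 against the mean of the microglia markers, and right, Ackr3 against the mean of the endothelium markers, 1 point per library, DHEA in red and sesame oil in blue. The points rise together in both panels (r = 0.942 and 0.86), with HipR4 at the top for Cx3cr1 and HipR7 at the bottom for Ackr3.

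The 3 other relations were weaker or rested on few libraries. Cx3cl1 and the neuron markers had r = 0.76 (exact permutation p = 0.0247, adjusted 0.0412) and rho = 0.786 (exact permutation p = 0.0279, adjusted 0.0465), and r was 0.739 within groups. This relation rested on HipR11 and HipR16, since r was 0.224 without them. Cxcl12 and the endothelium markers had r = 0.555 (exact permutation p = 0.155, adjusted 0.194) and rho = 0.405 (exact permutation p = 0.327, adjusted 0.409), and r turned to -0.772 without HipR3 and HipR4. For Cxcl14 and the neuron markers r was 0.0933 (exact permutation p = 0.826, also after adjustment) and rho was 0.0476 (exact permutation p = 0.935, also after adjustment), with r at -0.0996 without HipR11 and HipR16.

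No gene of the lists that act with chemokines had an adjusted p under 0.05, and the lists were not tested as groups. At an unadjusted p under 0.05, 4.82% of all genes were higher and 4.49% lower. Of 9 related ligands and receptors outside the family names, 2 were higher at an unadjusted p under 0.05 and none lower, with a median log2 fold change of 0.01. These were Rarres2, the chemoattractant chemerin (0.38 ± 0.16, unadjusted p = 0.031), and Cd74, the invariant chain that is also a receptor for Mif (0.58 ± 0.26, unadjusted p = 0.0402). Mif itself, the most abundant at 106 FPKM, had a log2 fold change of -0.03. Of 26 genes of receptor signalling, Pik3cg (0.34 ± 0.16) and Rac2 (0.56 ± 0.25), a kinase subunit and a GTPase of leukocytes, were higher and the kinase subunit Pik3cd (-0.25 ± 0.10) was lower, with a median of 0.12 and 22 of 26 above 0, beside 51.2% of all genes tested. The count of related ligands and receptors was 0 without HipR5 or HipR16 and 1 without HipR3, HipR10 or HipR11, and that of receptor signalling was 5 without HipR7, 1 without HipR9 and 0 without HipR5.

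Of 12 genes that desensitize or internalize receptors, only Arrb2, which encodes beta-arrestin 2, passed the unadjusted threshold. Its log2 fold change was -0.28 ± 0.07 (unadjusted p = 0.000929, adjusted p = 0.245, edgeR), and the median of the list was 0.06. Of 14 inducers of chemokine genes, Nfkbia, the NF-kB inhibitor that NF-kB itself induces, was higher (0.45 ± 0.13, unadjusted p = 0.00304, adjusted p = 0.293, edgeR), and the median was 0.15. The cytokines of that list were low, with Il1a the highest at 0.302 FPKM, Il1b at 0.173, Tnf at 0.0315, Il6 at 0.0278 and Ifng at 0.00285 FPKM. Of 8 genes that process chemokines, the carboxypeptidase gene Cpm was higher (0.31 ± 0.11, unadjusted p = 0.0129), and the median was 0.12 with all 8 above 0. The count of desensitization genes was 3 without HipR11, that of inducers was 3 without HipR7 and 2 without HipR9 or HipR11, and that of processing genes was 2 without HipR9 and 0 without HipR11 or HipR16.

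Markers of other cells gave the following counts at an unadjusted p under 0.05, which 4.82% of all genes passed as higher and 4.49% as lower. Of 7 border macrophage markers, Mrc1 was higher and the median log2 fold change was 0.39, and the count was 3 without HipR7 and 0 without HipR3, HipR10 or HipR16. Of 10 endothelium markers, Pecam1, Slco1a4 and Ly6c1 were higher, with a median of 0.02, a summed level of 357, 376, 314 and 358 CPM with DHEA and 322, 308, 313 and 326 CPM with sesame oil, and Cldn5 the most abundant at 20.14 FPKM. Of 7 astrocyte markers 5 were higher, with a median of 0.17, and 2 passed when HipR4, HipR5 or HipR10 was left out and 3 without HipR16. Of 7 mural cell markers Rgs5 was higher, of 8 neutrophil and monocyte markers Plac8 was higher, of 8 hippocampal neuron markers Spink8 was higher, and of 8 neuron markers Rbfox3 was lower. The mural count was 2 without HipR7 and 0 without HipR4, the neutrophil and monocyte count was 2 without HipR3 and 0 without HipR11, the hippocampal neuron count was 0 without HipR4 or HipR16, and the neuron count was 2 without HipR11. None of the T and NK cell, B cell, red blood cell, meningeal fibroblast or choroid plexus markers passed over all 8 libraries, though 3 meningeal markers did without HipR3 and 1 without HipR4 or HipR7, 1 T and NK cell marker did without HipR10 and 1 red blood cell marker without HipR7. Of 7 anterior pituitary markers tested, 3 were lower in the DHEA libraries (Gh, Prl and Pomc, by the deposited labels), with summed levels of 3.37, 1.85, 2.14 and 2.35 CPM with DHEA and 3.53, 30.25, 3.62 and 6.91 CPM with sesame oil, and Fshb was at 0.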

How the data were processed

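RNA of hippocampus from 8 libraries was sequenced as 150 bp paired ends, and the labels name polyA RNA. According to the methods and the submitters' processing notes, reads were trimmed with fastp, aligned with HISAT2 to GRCm39 and counted per gene with HTSeq. Versions, annotation and strand setting are not given in the sources used here. The authors deposited raw counts per gene, used here for all tests, and the deposited FPKM, made by the authors from the counts and transcript length, was used for levels between genes. In 48 of 48 members with at least 2 values, FPKM divided by counts and library total was constant within 0.1%.

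The edgeR (4.0.16) quasi-likelihood test was run on the counts of all 27612 genes with at least 1 count, with TMM scaling and Benjamini-Hochberg adjustment over all of them. CPM is per 1000000 counts, and log2 CPM used a pseudocount of 0.5. SE is the log2 fold change divided by the square root of F. Single genes were compared by exact permutation over 70 allocations, and relations by 40320 pairings. DESeq2 (1.42.0), limma (3.58.1) and the other settings of the closing section were alternatives. The code was tested on simulated data. Replicates of a group differed by 7.82 to 57.3 times the sampling noise (chi-square per gene), so all counted as separate samples. The exact interval of the Ccr10 ratio and the floors cover counting error only; the standard errors include the spread between libraries.

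Named were the 12 members highest in FPKM (1 member and 1 marker gene are not reported here), members with an unadjusted p under 0.05, members whose groups did not overlap, their listed partners and Ccr10, with Ccr1, Ackr4, Cxcl5 and Ccl7 added after their values were seen. The members, the 19 gene lists, the pairs and the motifs were chosen with earlier results of these data known. Exons of 9 members overlap another gene in GENCODE vM21, and Ccl21a, Ccl21b, Ccl21d, Ccl27a and Ccl27b are near-identical copies, so their counts are uncertain. Upstream sequences came from RefSeq (GRCm38.p6); no coordinate was converted between builds. Protein sequences were not used here.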

Additional observations from a re-analysis of the deposited data

Results flagged for a closer look

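In 5 of the 46 groups of 4 libraries examined, 1 library stood apart by Dixon's criterion for 4 samples (its gap to the nearest library, as a share of the group's range), where chance gives about 2.3. Cxcl14 was higher in HipR4 (DHEA), at 87.1 CPM compared with 76.3 to 78.1 in the rest of the group (gap 0.836 of the range). Ccl25 was lower in HipR3 (DHEA), at 4.25 CPM compared with 4.63 to 4.69 (gap 0.857). Ccl7 was higher in HipR10 (sesame oil), at 0.813 CPM compared with 0 to 0.0635 (gap 0.922). Ccr10 had its only sesame oil count in HipR16, at 0.0317 CPM compared with 0 in the others (gap 1.0), which is 1 read. The border macrophage markers were lower in HipR16 (sesame oil), at a mean log2 CPM of 1.39 compared with 1.49 to 1.51 (gap 0.866).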

How the results depend on the processing

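No member had an adjusted p under 0.05 under any alternative run, although DESeq2 gave no adjusted p for 44 of the 53 members, Ccl9, Ccr10 and Ccr1 included, so that it bears on 9. Members higher in DHEA at an unadjusted p under 0.05 were 2 of 53, 1 with filterByExpr, 4 with limma on log2(FPKM + 0.1), 4 with robust moderation, 4 in the 6 samples registered first (without HipR9 and HipR11), and 2 to 6 when each library was left out in turn. The share of members that were higher exceeded that of all genes with limma (5.66% on log2(FPKM + 1) and 7.55% on log2(FPKM + 0.1), each against 3.82%), robust moderation (7.55% against 5.19%), the 6 samples registered first (7.84% against 5.09%) and each library left out, and did not with DESeq2, RLE scaling, a minimum of 10 counts or filterByExpr. Lower members were 0, 1 in the 6 samples registered first, and 0 to 1 on leaving out a library. With the fold threshold, 1 was higher, 0 with filterByExpr, 0 with limma on log2(FPKM + 1) and 0 on log2(FPKM + 0.1). That count was 3 with robust moderation and 2 to 4 on leaving out a library. Lower members past the fold threshold were 0, 1 in the 6 samples registered first, and 0 to 1 on leaving out a library. Over all genes the share past it was 1.60% in the edgeR fit used above, and it is not given here for the alternatives. The median log2 fold change over the 53 members, which includes low genes whose fitted values depend on the prior count, was 0.202, 0.016 with limma on log2(FPKM + 1), whose pseudocount shrinks low genes, and 0.16 to 0.339 on leaving out a library. DESeq2, RLE scaling and a minimum of 10 counts kept each of these counts within 1.5 times and the median within its spread. Signs turned for Ccl12 (-0.007 and -0.039 with limma on log2(FPKM + 1) and log2(FPKM + 0.1), -0.011 in the 6 samples registered first, and -0.097 to 0.247 on leaving out a library) and for Ccl7 (-2.58 to 0.554 on leaving out a library, the last without sesame oil replicate 2, HipR10); the cause was not tested. Without the 2 libraries farthest from the median of the markers, r was -0.772 for Cxcl12 with endothelium markers and -0.0996 for Cxcl14 with neuron markers. In the 6 samples registered first the unadjusted p was 0.0112 for Cx3cr1, 0.0027 for Ccl28, 0.00228 for Cxcl5, 0.0175 for Ccl7 and 0.137 for Ccr10. At an unadjusted p under 0.05, the related ligands and receptors numbered 2, 0 with filterByExpr and with limma on log2(FPKM + 1), and 1 with a minimum of 10 counts, limma on log2(FPKM + 0.1), robust moderation and the 6 samples registered first. Receptor signalling genes numbered 3, and 1 with limma on log2(FPKM + 0.1) and in the 6 samples registered first; in those 6 samples desensitization genes went from 1 to 4 and inducers from 1 to 0, and processing genes went from 1 to 0 with limma on log2(FPKM + 1). Raw CPM in place of TMM moved a level by at most 3.1% and turned no overlap. Replicate numbers follow accession order: No paired analysis was possible because the labels carry no number that pairs the groups. At this depth 3 counts equal 0.0808 to 0.0952 CPM, and members with a mean count under 10 rest on few reads.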
